A study of Rattus norvegicus with 24 samples.

Results

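Transcript levels of 7 genes of plasma membrane amino acid transport were described in rat quadriceps muscle. They are Slc7a2 and 6 other carriers or carrier subunits, Slc7a1, Slc7a5, Slc7a8, Slc3a2, Slc38a2 and Slc1a5. Members were taken by gene symbol, and each of the 7 had 1 row among the 21067 genes of the table. Slc7a2 was picked because it had the smallest p of all genes when catgut group 1 was set against the treadmill group. The values of the 7 genes in catgut 1 against treadmill are therefore a description, and so are other values of Slc7a2 that rest on any of those 12 libraries. Where a call or an adjusted p is printed for them, it describes the fit and is not read as a test. The other 6 genes were added as members of the same transport system.

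RNA was sequenced from 24 Sprague-Dawley rats, obtained at 6 weeks of age, 6 libraries a group, in a control group, a treadmill group, catgut group 1 and catgut group 2. Control rats were fed normally and not trained. The other 3 groups trained on a treadmill with rising speed for 7 weeks and then ran to exhaustion, and the quadriceps was sampled after this last session. Before training, catgut group 1 had pieces of absorbable collagen thread embedded at the acupoints Bai Hui, Qiang Feng, Xie Qi, Qian Shen, Yang Wa and Han Gou, and catgut group 2 at the same points plus Fei Shu, followed by a week of recovery. Several of these points lie in the thigh of the hind limb. Each group held as many males as females according to the methods, while the labels give no sex. Y-linked transcripts were above 1 FPKM in 2 of 6 libraries of catgut group 2 and in 3 of 6 of each other group. The labels describe neither a sham embedding nor an untrained group with catgut, so embedding cannot be told apart from anesthesia and needling.

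Amino acids cross the muscle cell membrane through carriers that differ in the charge and size of what they move. Slc7a1 and Slc7a2 encode CAT1 and CAT2, uniporters of the cationic amino acids arginine, lysine and ornithine, and arginine is the substrate of nitric oxide synthase. Slc7a5 and Slc7a8 encode LAT1 and LAT2, exchangers of leucine and other large neutral amino acids. Both need a heavy chain, encoded by Slc3a2, to reach the membrane. Slc38a2 encodes SNAT2, which brings in alanine, glutamine and other small neutral amino acids together with sodium and is known to be induced when amino acids are scarce. Slc1a5 encodes ASCT2, a sodium-dependent exchanger of neutral amino acids including glutamine. Intracellular leucine and arginine are sensed by the mTORC1 pathway, which controls protein synthesis in muscle.

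Promoter windows from RefSeq on the GRCr8 build, running from 250 bases before to 50 bases after a start site, were matched by symbol for 5 of the 7 genes and not for Slc7a2 or Slc1a5. Those of Slc7a1 and Slc7a5 are shown because they held a searched motif, in capitals, and that of Slc7a8 because it is the member with the highest correlation with Slc7a2 over the 24 libraries. Its window held none of the motifs. The Slc7a1 window is chr12:11664238-11664537 on the plus strand, the Slc7a5 window chr19:66872363-66872662 on the minus strand and the Slc7a8 window chr15:32212666-32212965 on the minus strand.
Slc7a1: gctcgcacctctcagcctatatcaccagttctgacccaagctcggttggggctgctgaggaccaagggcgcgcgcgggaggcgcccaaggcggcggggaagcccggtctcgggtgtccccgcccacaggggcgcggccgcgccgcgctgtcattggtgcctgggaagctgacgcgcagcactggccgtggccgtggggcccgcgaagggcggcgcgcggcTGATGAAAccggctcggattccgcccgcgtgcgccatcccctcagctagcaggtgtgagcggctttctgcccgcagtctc
Slc7a5: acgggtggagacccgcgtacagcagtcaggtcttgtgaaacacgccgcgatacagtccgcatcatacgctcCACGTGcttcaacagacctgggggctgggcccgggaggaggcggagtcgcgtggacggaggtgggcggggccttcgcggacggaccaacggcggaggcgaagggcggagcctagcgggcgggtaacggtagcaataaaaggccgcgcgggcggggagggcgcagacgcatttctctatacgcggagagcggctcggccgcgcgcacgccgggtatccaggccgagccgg
Slc7a8: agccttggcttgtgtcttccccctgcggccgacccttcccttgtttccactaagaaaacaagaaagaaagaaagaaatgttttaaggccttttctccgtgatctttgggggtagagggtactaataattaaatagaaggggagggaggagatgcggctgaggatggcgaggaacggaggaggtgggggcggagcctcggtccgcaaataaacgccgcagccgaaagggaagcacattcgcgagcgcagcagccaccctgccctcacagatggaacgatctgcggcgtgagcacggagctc

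Both strands were searched for 3 short motifs, which do not overlap one another in these windows. The amino acid response element TGATGNAA, the motif of ATF4 with a C/EBP partner, was found among these genes only for Slc7a1, as TGATGAAA starting at position -30 from the start site, and 3.98% of 33469 windows of this length held it. The E-box CACGTG was found only for Slc7a5, at position -179, and 6.42% of all windows held it. The D-box TTATGNAA, found in 3.66% of all windows, was in no window of these 5 genes, of which Slc3a2 had windows at separate start sites. A match describes the letters of a window and is not a binding site, and a window without one says nothing about the factor.

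The genes spanned a wide range of levels in muscle, given as FPKM, fragments scaled to the length of the transcript and the number of mapped fragments, which allows genes to be compared. Slc38a2 and Slc3a2 were the most abundant, at means of 67.1 and 51.5 FPKM over the 24 libraries, in the 94.0th and 92.5th percentile of the 14772 genes tested. Slc7a2 had a mean level of 4.64 FPKM and Slc7a8 one of 3.39 FPKM, near the middle of all genes at the 57.8th and 51.4th percentile. Slc1a5 followed at 1.11 FPKM. The lowest levels were those of Slc7a5, at 0.155 FPKM, and Slc7a1, at 0.148 FPKM, in the 4.89th and 4.38th percentile. So the muscle libraries held far more transcript of the heavy chain than of the LAT1 and LAT2 light chains, and more of CAT2 than of CAT1. All 7 genes passed the filter of a mean of 0.1 FPKM, although Slc7a5 and Slc7a1 passed it narrowly.

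Library size ranged from 45945938 to 78278080 counts. Libraries were checked against marker lists of other cell types. The summed level of 10 skeletal muscle markers lay between 80511 and 113030 FPKM in every library, against 328 to 724 FPKM for 8 adipocyte markers, although the extraction text in the labels speaks of an adipose type. The sum of 9 liver markers reached 238 FPKM in the control group and 363 FPKM in the treadmill group, but at most 13.9 FPKM in catgut group 1 and 18.8 FPKM in catgut group 2, where 3 and 2 of these markers were at 0 in all 6 libraries. The replicates are separate animals by the methods. In bulk muscle, fewer cells of a type and less RNA per cell cannot be told apart.

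Slc7a2, on chromosome 16 at 54460067 to 54513349 on the minus strand in the table's coordinates, is listed with 2 transcripts, and its value does not separate them. In the treadmill group its level was lowest at 2.02, with a median of 2.59 and a highest value of 3.47 FPKM. In catgut group 1 the lowest, median and highest values were 4.44, 5.84 and 9.08 FPKM. In catgut group 2 they were 3.77, 5.39 and 5.95 FPKM. The treadmill group thus lay entirely below both catgut groups, and the range of catgut group 2 was the narrower of the catgut groups. In the control group the values ran from 2.16 through a median of 4.48 to 6.18 FPKM, a range that overlapped all 3 trained groups. Ordered by mean, the level was 6.32 ± 1.62 FPKM in catgut group 1, 5.17 ± 0.835 in catgut group 2, 4.40 ± 1.59 in the control group and 2.68 ± 0.497 in the treadmill group (SD, n = 6 each). Neighbors in the upper part of this order, catgut 1 and catgut 2, and catgut 2 and control, lay within their spread.

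**Figure D1:**
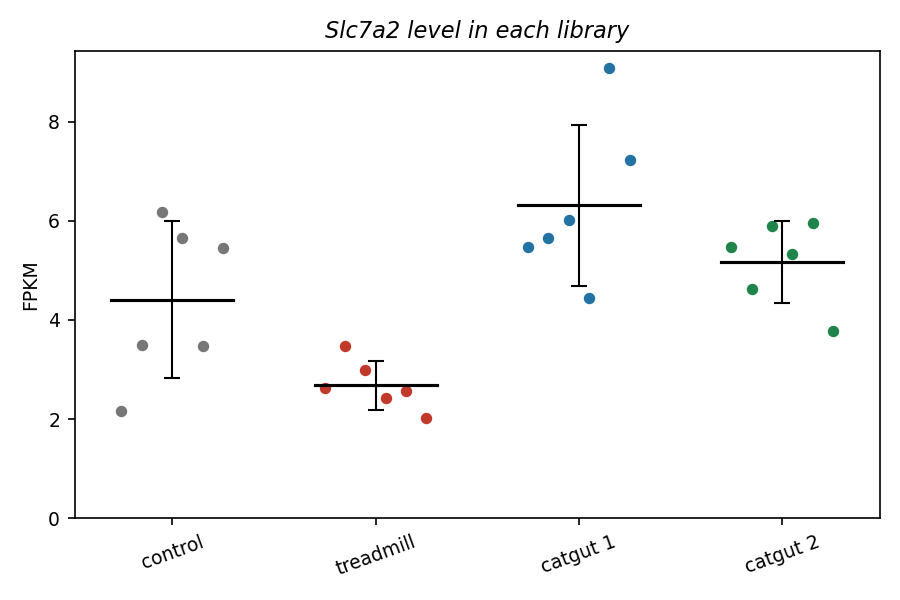
Slc7a2 level in FPKM (vertical axis) in each of the 24 libraries, by group (horizontal axis). Points are single libraries and the bars are the mean and SD of 6 libraries. The treadmill libraries, at 2.02 to 3.47 FPKM, all lie below the lowest library of catgut group 1 (4.44 FPKM) and of catgut group 2 (3.77 FPKM), while the control libraries spread from 2.16 to 6.18 FPKM.

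Relative to the treadmill group, the fitted level of Slc7a2 was higher in both catgut groups. The log2 fold change was 1.21 in catgut group 1 (95% interval 0.91 to 1.51), a 2.31-fold difference, and 0.93 in catgut group 2 (0.65 to 1.21), a 1.91-fold difference, with 6 of 6 catgut libraries above all treadmill libraries in each case. These 2 comparisons share the 6 treadmill libraries, so they are not independent of each other. The treadmill group in turn had a lower fitted level than the control group (log2 fold change -0.69, 95% interval -1.15 to -0.23), but 5 of its 6 libraries lay inside the control range. Catgut group 1 was 0.52 above control (0.03 to 1.02) on the same scale, and catgut group 2 differed from catgut group 1 by -0.28 (-0.62 to 0.05). Without replicate 5 of catgut group 1, its highest library, the last of these was -0.17.

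The comparison of catgut group 2 with the control group used none of the libraries by which Slc7a2 was chosen, so it was tested. Slc7a2 had a log2 fold change of 0.24 (SE 0.22, 95% interval -0.24 to 0.72, edgeR quasi-likelihood test adjusted p = 0.644, n = 6 per group), with an exact permutation p of 0.288. No difference was detected, and the interval leaves room for a change of up to 1.65-fold upward or 0.847-fold downward. The 2 groups overlapped, with no library of catgut group 2 above the highest control library.

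Much of the liver signal came from control replicate 2 and treadmill replicate 3, with 135 and 226 FPKM of Alb, the albumin gene. Slc7a2 is itself expressed in liver. These libraries had Slc7a2 levels of 3.50 and 2.98 FPKM, inside the range of their groups. Without treadmill replicate 3, the log2 fold change of Slc7a2 was 1.25 for catgut group 1 and 0.98 for catgut group 2 against the treadmill group, and that of the treadmill group against control was -0.73. Without control replicate 2, the treadmill group differed from control by -0.74 and catgut group 2 by 0.19. Across the 24 libraries, the summed skeletal muscle markers correlated negatively with Slc7a2 (Pearson's r -0.609), with medians of 98972, 98198, 90303 and 87030 FPKM for control, treadmill, catgut 1 and catgut 2 in that order. Their part in the result was not tested.

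Slc7a1, the other cationic carrier (chromosome 12, 8032809 to 8108972, plus strand), stayed low in every group. Its lowest, median and highest levels were 0.0669, 0.111 and 0.267 FPKM in the control group and 0.101, 0.127 and 0.166 FPKM in the treadmill group. In catgut group 1 they were 0.110, 0.137 and 0.219 FPKM, and in catgut group 2 they were 0.0881, 0.187 and 0.240 FPKM. All 4 groups overlapped, and 4 of 6 libraries of catgut group 2 lay above the highest treadmill library. Counts were low, at 40 to 77 in the treadmill and 38 to 113 in the catgut 2 libraries. The log2 fold change of catgut group 2 against treadmill was 0.42 (SE 0.26, edgeR adjusted p = 0.614), and in the other 4 tested comparisons it lay between -0.08 and 0.34.

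Slc7a8, the LAT2 light chain (chromosome 15, 33369216 to 33428973, minus strand), was the member with the highest correlation with Slc7a2 over the 24 libraries, group differences included. Its lowest, median and highest levels were 1.59, 2.82 and 4.09 FPKM in the control group and 2.15, 2.76 and 3.21 FPKM in the treadmill group. In catgut group 1 they were 3.46, 4.08 and 4.95 FPKM, and in catgut group 2 they were 2.44, 3.48 and 6.60 FPKM. All libraries of catgut group 1 lay above all treadmill libraries, whereas catgut group 2 had libraries both above and within the treadmill range. As a description, the log2 fold change of catgut group 1 against treadmill was 0.58 (95% interval 0.28 to 0.88). In the tested comparisons it was 0.57 for catgut group 1 against control (SE 0.19, edgeR unadjusted p = 0.0117, adjusted p = 0.401), 0.50 for catgut group 2 against treadmill (SE 0.22, unadjusted p = 0.0416, adjusted p = 0.437) and 0.49 for catgut group 2 against control (SE 0.26, adjusted p = 0.367). None of these passed after adjustment over all genes. The level in the treadmill group was close to control, with a log2 fold change of -0.01 (95% interval -0.45 to 0.44), a sign that flips with the libraries used.

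Slc7a5, the LAT1 light chain (chromosome 19, 54693959 to 54722563, minus strand), was near the limit of detection. A level of 12 counts or fewer, which stands for about 3 fragments because the commonest count above 0 was 4, was found in 1 control library, 2 libraries of catgut group 1 and 1 of catgut group 2. Among these, replicate 1 of catgut group 1 had 0 counts. Its lowest, median and highest levels were 0.0145, 0.131 and 0.211 FPKM in the control group and 0.0618, 0.258 and 0.365 FPKM in the treadmill group. They were 0, 0.130 and 0.255 FPKM in catgut group 1, and 0.0235, 0.167 and 0.257 FPKM in catgut group 2. The treadmill group was the highest on average, with 4 of 6 libraries above all control libraries, but all groups overlapped. Its log2 fold change against control was 0.92 (SE 0.55, 95% interval -0.27 to 2.11, edgeR adjusted p = 0.630), so no difference was detected, with 15 to 79 counts in the treadmill and 4 to 56 in the control libraries. In the other 4 tested comparisons it lay between -0.62 and 0.29.

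Slc3a2, the heavy chain shared by LAT1 and LAT2 (chromosome 1, 224906554 to 224921092, minus strand), had the steadiest level of the 7 genes, with a coefficient of variation of 11.3% over the 24 libraries. Its median was 51.6 FPKM in the control group, 52.6 in the treadmill group, 52.1 in catgut group 1 and 50.4 in catgut group 2. Single libraries lay between 41.6 and 66.2 FPKM, and the groups overlapped fully. In the 5 tested comparisons its log2 fold change lay between -0.14 and 0.08, and the widest 95% interval bound was 0.30 in size, for catgut group 2 against catgut group 1 (-0.30 to 0.03).

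Slc38a2, the sodium-coupled carrier SNAT2 (chromosome 7, 138088649 to 138100841, minus strand), was the most abundant of the 7. Its lowest, median and highest levels were 46.5, 60.8 and 83.1 FPKM in the control group and 46.2, 56.8 and 89.1 FPKM in the treadmill group. In catgut group 1 they were 51.0, 69.7 and 113 FPKM, and in catgut group 2 they were 57.4, 68.4 and 88.6 FPKM. The medians of both catgut groups were above those of the other groups, within overlapping ranges, and the single highest library was replicate 5 of catgut group 1. The log2 fold changes were 0.18 for catgut group 2 against treadmill (SE 0.11, edgeR adjusted p = 0.620), 0.20 for catgut group 2 against control (SE 0.14, adjusted p = 0.512) and 0.23 for catgut group 1 against control (SE 0.17, adjusted p = 0.705). None passed the threshold. Without that library, the last of these fell to 0.08.

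Slc1a5, the exchanger ASCT2 (chromosome 1, 78710539 to 78724794, plus strand), varied more between animals than between groups. Its lowest, median and highest levels were 0.659, 1.06 and 2.38 FPKM in the control group and 0.693, 0.959 and 1.79 FPKM in the treadmill group. In catgut group 1 they were 0.580, 1.05 and 1.43 FPKM, and in catgut group 2 they were 0.557, 1.10 and 1.39 FPKM. The ranges overlapped throughout. Its log2 fold change was -0.24 for the treadmill group and for catgut group 1 against control, -0.25 for catgut group 2 against control and -0.01 in both remaining tested comparisons, with adjusted p between 0.699 and 1 by edgeR.

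**Figure D2:**
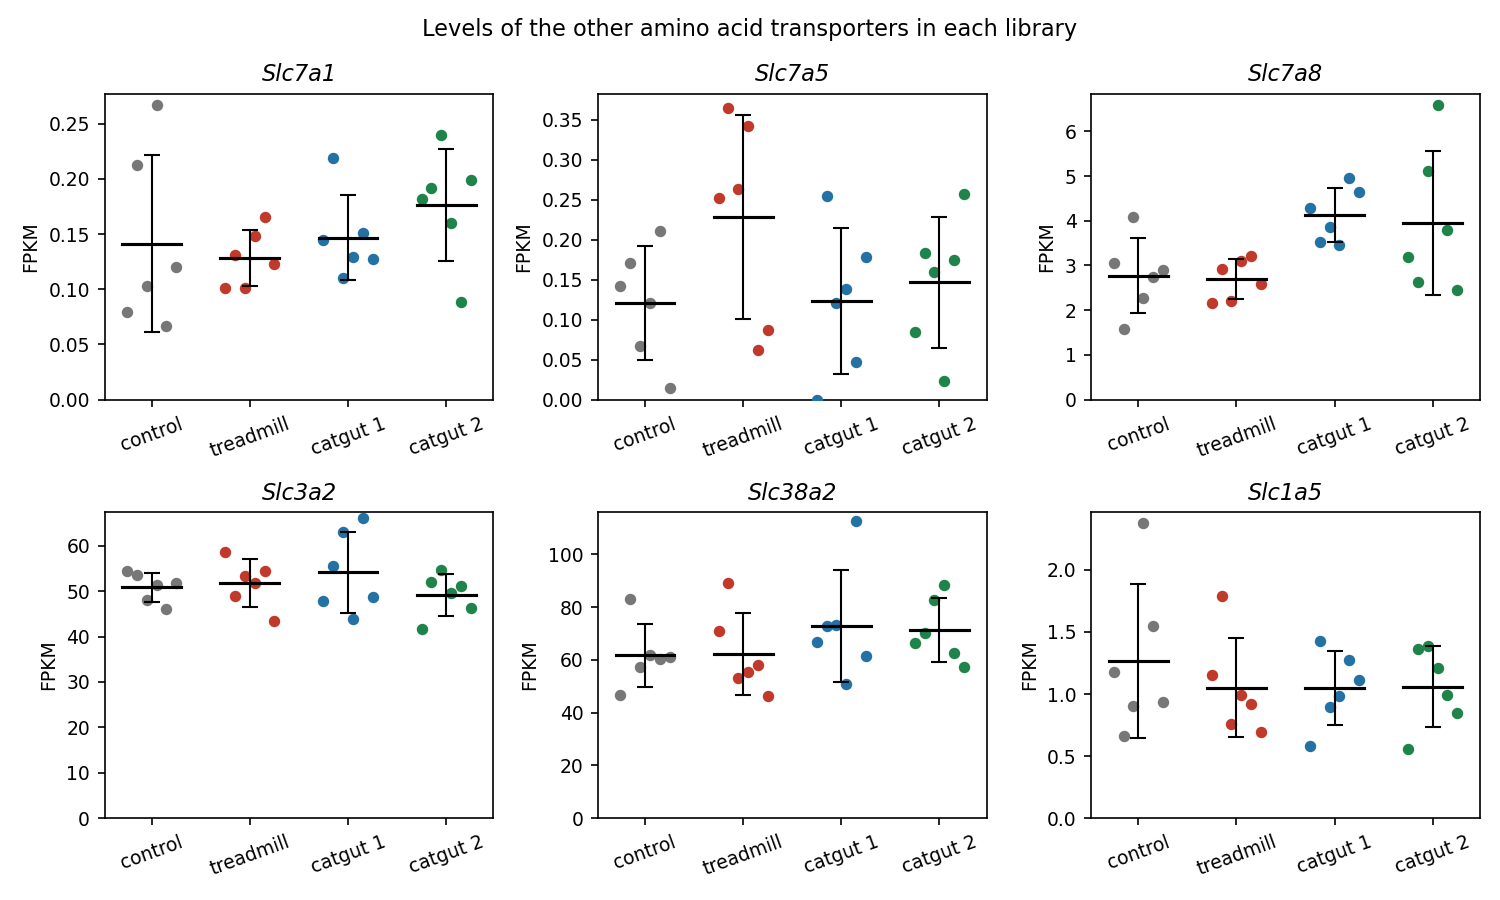
FPKM of the other 6 genes (vertical axis of each panel, its own scale) in each of the 24 libraries, by group (horizontal axis). Points are single libraries and bars are the mean and SD of 6 libraries. Only for Slc7a8 do all libraries of one group, catgut group 1 (3.46 to 4.95 FPKM), lie above all treadmill libraries (2.15 to 3.21 FPKM).

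Counted over the 7 genes, calls at an adjusted p under 0.05 by edgeR were limited to Slc7a2 in the comparisons of the catgut groups with the treadmill group. For treadmill against control, 0 of 7 genes were called, against 0.0542% of all genes, 1 of 7, Slc7a2, had an unadjusted p under 0.05, against 9.12%, and the groups did not overlap for 0 of 7, against 0.447%. For catgut 1 against treadmill, 1 of 7 was called, against 0.0474%, 2 of 7 had an unadjusted p under 0.05, against 6.93%, and the groups did not overlap for 2 of 7, Slc7a2 and Slc7a8, against 0.413%. For catgut 2 against treadmill, 1 of 7 was called, against 0.237%, 2 of 7 had an unadjusted p under 0.05, against 10.7%, and the groups did not overlap for 1 of 7, against 1.04%. DESeq2 called 2 of 7, Slc7a2 and Slc7a8, in catgut 1 against treadmill, against 0.941% of all genes. In catgut 2 against treadmill it called 1 of 7, against 2.09%. Since Slc7a2 was chosen on these libraries, nothing is read from those counts.

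The comparisons that leave out the treadmill group gave no calls. For catgut 2 against control, 0 of 7 genes had an adjusted p under 0.05, against 0.508% of all genes, and 0 of 7 an unadjusted p under 0.05, against 16.4%. The groups did not overlap for 0 of 7, against 1.09%. For catgut 1 against control, 0 of 7 were called, against 0.0203%, and 2 of 7, Slc7a2 and Slc7a8, had an unadjusted p under 0.05 by edgeR, against 9.84%. Slc7a2 was chosen with the catgut 1 libraries, so nothing is read from its part in the counts of comparisons with catgut group 1. The groups did not overlap for 0 of 7, against 0.393%. For catgut 2 against catgut 1, 0 of 7 were called, against 0.00677%, 0 of 7 had an unadjusted p under 0.05, against 3.26%, and the groups did not overlap for 0 of 7, against 0.162%. DESeq2 also called 0 of the 7 in these 3 comparisons, against 4.70%, 1.10% and 0.0542% of all genes in that order, and in treadmill against control, against 0.758%. The median log2 fold change of the 7 genes was 0.24 for catgut 2 against control, which is the value of Slc7a2 itself. It was 0.09 for catgut 1 against control, -0.03 for catgut 2 against catgut 1 and -0.009 for treadmill against control. The medians over all genes tested were close to 0 in each.

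**Figure D3:**
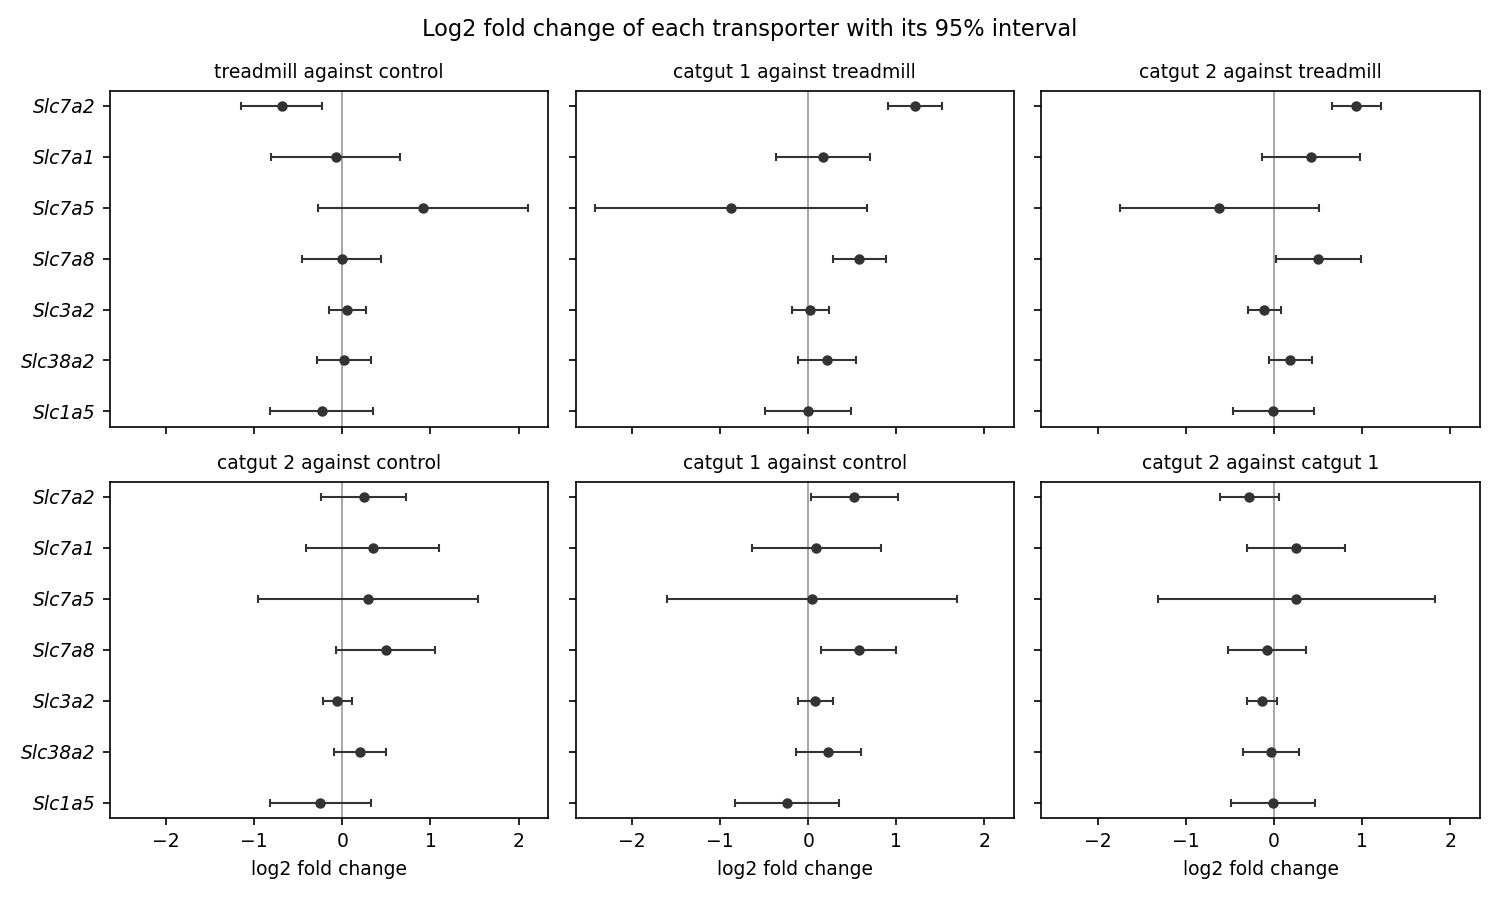
Log2 fold change of each of the 7 genes (horizontal axis) in the 6 comparisons, from edgeR. Points are estimates and bars are 95% intervals over 6 libraries a group. The intervals of Slc7a2 against the treadmill group run from 0.91 to 1.51 in catgut group 1 and from 0.65 to 1.21 in catgut group 2. Slc7a2 was chosen on the former comparison, which shares its treadmill libraries with the latter, so both are a description with no test. The intervals of Slc7a5 are the widest.

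Libraries with a high Slc7a2 level were then described by the genes that varied most like it. Pearson's r of log2(FPKM + 1) was computed over the 24 libraries for 9497 genes with a mean of at least 1 FPKM, and the libraries share their groups, so r is a description. The 5 highest values were those of Cep85l (0.867), Psma5 (0.854), Per2 (0.847), Psma1 (0.837) and Usp2 (0.836). Psma5 and Psma1 encode alpha subunits of the proteasome core, Usp2 a deubiquitinating enzyme, and Per2 a repressor of the circadian clock. The 3 lowest values were those of Fbxw5 (-0.789), an F-box protein of a ubiquitin ligase, Frat2 (-0.755) and Ankrd23 (-0.752). This order depended on the measure. After group means were subtracted, 1 of the 5, Cep85l, stayed among the top 5, and with Spearman's rho 0 did. All 5 ranked between 6 and 27 of the 9497 genes by rho, and between 3 and 154 after group means were subtracted. The median over all genes was 0.158, and the 5th and 95th percentiles were -0.346 and 0.557.

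Per2 had 2.10 ± 0.907 FPKM in the treadmill group, 8.96 ± 2.53 in catgut group 1 and 9.80 ± 2.27 in catgut group 2 (SD, n = 6 each). In the control group it ranged from 1.38 to 9.51 FPKM, which overlapped the other 3 groups. Psma5 had means of 74.6, 63.0, 84.5 and 83.0 FPKM for control, treadmill, catgut 1 and catgut 2 in that order. Among the other 6 transporter genes, Slc7a8 (0.598) and Slc38a2 (0.542) lay in the 96.9th and 94.4th percentile of likeness to Slc7a2. Slc7a1 (0.253), Slc3a2 (0.185) and Slc1a5 (0.160) lay nearer the middle of all genes, and Slc7a5 (-0.394) in the 3.71st percentile. After group means were subtracted, r with Slc7a2 was 0.371 for Slc7a8 and 0.530 for Slc38a2. Replicate 5 of catgut group 1 was the highest library of its group for all of these genes, and r without it was not computed. The heavy chain Slc3a2 correlated most with Slc38a2 (0.498), while Slc7a5 and Slc7a8, its light chain partners, had an r of -0.435 with each other.

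**Figure D4:**
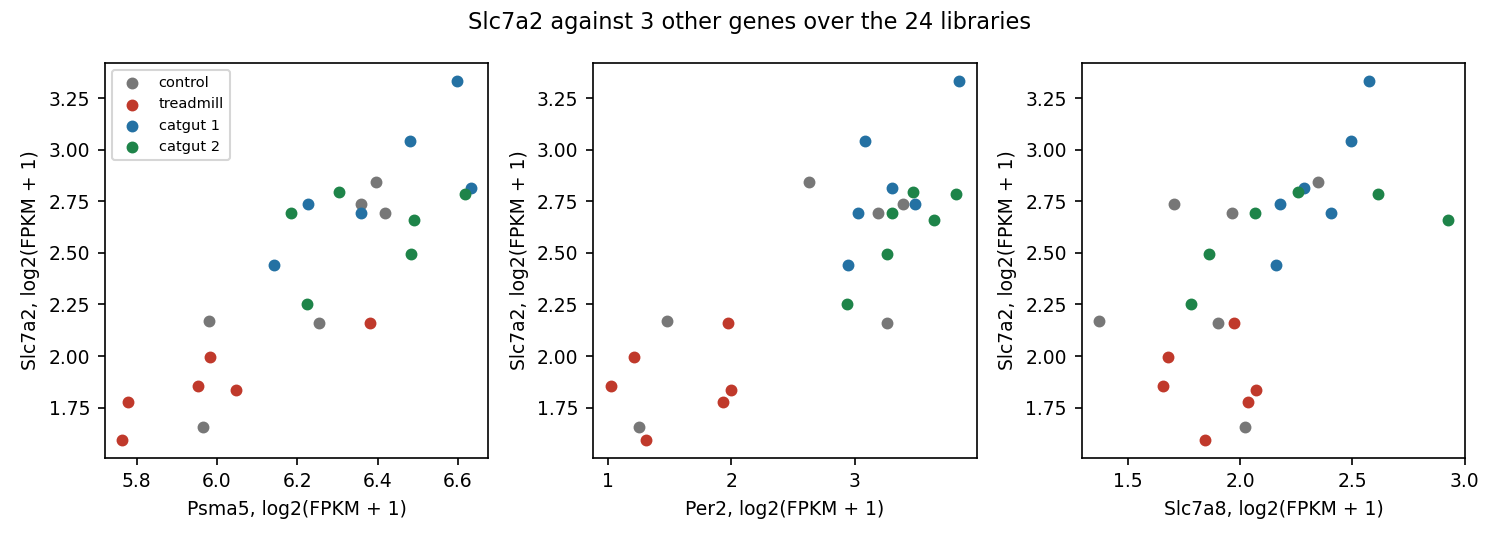
Slc7a2 (vertical axes) against Psma5, Per2 and Slc7a8 (horizontal axes), all as log2(FPKM + 1), in the 24 libraries, with 1 point a library colored by group. Treadmill points have Slc7a2 at 3.47 FPKM or less, points of both catgut groups lie from 3.77 FPKM upward, and control points run from 2.16 to 6.18 FPKM, across the ranges of both (r with Slc7a2 of 0.854, 0.847 and 0.598). Along the horizontal axis the treadmill points lie apart from those of both catgut groups for Per2, at 2.99 FPKM or less against 6.68 or more, but not for Psma5, where treadmill replicate 2 had 82.3 FPKM, or for Slc7a8.

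Other carriers of amino acids were counted from a list of 46, of which 28 were tested. None had an adjusted p under 0.05 in any of the 6 comparisons by edgeR, and DESeq2 called 1, Slc7a6, higher in catgut group 2 against treadmill, where it called 2.09% of all genes. At an unadjusted p under 0.05, 1 gene, or 3.57% of the list, was higher in treadmill against control and in each catgut group against treadmill, where 9.12%, 6.93% and 10.7% of all genes had such a p. In catgut 2 against control 4 genes (14.3%) were higher, against 16.4% of all genes, in catgut 1 against control 2 (7.14%), against 9.84%, and in catgut 2 against catgut 1 none, against 3.26%. None was lower, and each share was below that of all genes. Slc7a6, a light chain that also pairs with Slc3a2 and exchanges cationic for neutral amino acids, had 4.94 ± 1.21 FPKM in the control group, 4.43 ± 0.969 in the treadmill group, 7.24 ± 3.20 in catgut group 1 and 6.56 ± 1.56 in catgut group 2. Its log2 fold change against treadmill was 0.68 in catgut group 1 (adjusted p = 0.370) and 0.54 in catgut group 2 (adjusted p = 0.162), and the groups overlapped. Slc1a1, a glutamate carrier, had means of 0.658 FPKM in the control group and 1.06 in catgut group 2 (log2 fold change 0.70, edgeR adjusted p = 0.173). Slc7a4, a relative of the cationic carriers with no established transport, had 0.403 and 0.688 FPKM in the same groups (log2 fold change 0.79, adjusted p = 0.230). Slc6a7, a proline carrier best known from brain, had 0.124 FPKM in the control and 0.242 FPKM in the treadmill group (adjusted p = 0.492).

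Enzymes that use arginine for nitric oxide and polyamines were tested for 24 of 25 listed genes. Of these, 1 passed at an adjusted p under 0.05, against 0.508% of all genes in that comparison: Sms, spermine synthase, fell from a median of 11.9 FPKM in the control group (9.81 to 13.5) to 8.82 in catgut group 2 (7.89 to 10.0) (log2 fold change -0.45, SE 0.09, edgeR adjusted p = 0.0495). When each library was left out in turn, the log2 fold change of Sms stayed between -0.50 and -0.42, while its adjusted p ranged from 0.0275 to 0.131 and was under 0.05 in 3 of 12 cases. Its level was 9.31 ± 1.98 FPKM in the treadmill group and 8.76 ± 1.25 in catgut group 1. Nos1 and Arg1 were singled out after their values were seen. Nos1, the neuronal nitric oxide synthase of muscle, had means of 1.64 FPKM in the control group, 2.74 in the treadmill group, 1.90 in catgut group 1 and 1.63 in catgut group 2, with a log2 fold change of -0.77 for catgut group 2 against treadmill (adjusted p = 0.123). Arg1, the arginase of liver, had 0.602 and 0.525 FPKM in the control and treadmill groups and 0.0976 FPKM in catgut group 1, along with the liver markers given above. Its log2 fold change for catgut group 2 against control was -2.56 (edgeR adjusted p = 0.0669). DESeq2 called 2 genes of the list in that comparison, Sms and Arg1, and 1, Nos1, in catgut 2 against treadmill, all lower, where it called 4.70% and 2.09% of all genes.

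Branched-chain amino acid catabolism breaks down leucine, isoleucine and valine, which enter through LAT1 and LAT2, and 23 of 24 listed genes were tested. None passed at an adjusted p under 0.05 by edgeR. DESeq2 called 5 higher in catgut group 2 against treadmill (Klf15, Pcca, Ppm1k, Hibadh and Aldh6a1), against 2.09% of all genes, and 1, Klf15, higher in catgut group 1, against 0.941%. It also called Aldh6a1 lower in treadmill against control, against 0.758%, and Hibadh higher and Acadsb lower in catgut 2 against control, against 4.70%. At an unadjusted p under 0.05, 1 was higher and 8 were lower in the treadmill group than in control, which is 39.1% of the list against 9.12% of all genes. Against the treadmill group, 8 were higher and 0 lower in catgut group 1 and likewise in catgut group 2, 34.8% of the list in each, against 6.93% and 10.7% of all genes. The treadmill libraries are shared by all 3 comparisons. The list was chosen with earlier results of these data known, so these shares are a description. Klf15, a transcription factor that activates this pathway in muscle, had 15.6 ± 3.82 FPKM in the treadmill group, 25.6 ± 4.37 in catgut group 1 and 24.9 ± 4.65 in catgut group 2, with log2 fold changes of 0.70 (edgeR adjusted p = 0.0529) and 0.67 (adjusted p = 0.0580). Other edgeR settings called it higher in catgut group 1, namely scaling by median ratios, a covariate for the sum of Y-linked transcripts, robust fitting and leaving out treadmill replicate 2 or catgut 1 replicate 6. In catgut group 2 it was called with 1 fit over all 4 groups and without treadmill replicate 2 or catgut 2 replicate 2. Bcat2, the first enzyme of the pathway, had means of 138 FPKM in the control, 91.8 in the treadmill, 130 in the catgut 1 and 132 in the catgut 2 group. Ppm1k, the phosphatase that activates the branched-chain dehydrogenase, had 2.04 FPKM in the treadmill group and 3.28 in catgut group 2 (adjusted p = 0.138). Acadsb, an acyl-CoA dehydrogenase of the isoleucine branch, had 18.3 ± 11.7 FPKM in the control group and 7.79 ± 2.12 in catgut group 2 (edgeR adjusted p = 0.141).

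Of 9 enzymes of glutamine, glutamate and alanine, whose substrates are carried by Slc38a2 and Slc1a5, none passed at an adjusted p under 0.05 by edgeR, and Glul was called by DESeq2 in both catgut groups against the treadmill group, against 0.941% and 2.09% of all genes. At an unadjusted p under 0.05, 1 of 9 (11.1%) was called in each of these comparisons, against 6.93% and 10.7% of all genes. Glul, glutamine synthetase, had 371 ± 65.3 FPKM in the treadmill group, 606 ± 89.9 in catgut group 1 and 573 ± 118 in catgut group 2. All libraries of catgut group 1 were above the treadmill range, while that of catgut group 2 met it at its low end. The log2 fold changes were 0.69 (edgeR adjusted p = 0.149) and 0.60 (adjusted p = 0.162). Got1, the cytosolic aspartate aminotransferase, had 274 ± 65.1 FPKM in the control group and 423 ± 103 in catgut group 2 (log2 fold change 0.63, adjusted p = 0.196).

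The amino acid response and mTORC1 sensing were represented by 26 tested genes of 29 listed, and none passed at an adjusted p under 0.05 by edgeR, while DESeq2 called 2, Ddit4 and Rraga, higher in catgut group 1 against treadmill and 1, Psph, lower in catgut 2 against control, against 0.941% and 4.70% of all genes. At an unadjusted p under 0.05, 1 was higher and 6 were lower in the treadmill group than in control, 2 were higher and 1 lower in catgut group 1 against treadmill, and 7 were higher and 2 lower in catgut group 2 against treadmill. Of all genes, 9.12%, 6.93% and 10.7% had such a p in these comparisons. Ddit4, an inhibitor of mTORC1 signaling, had 20.3 ± 14.4 FPKM in the control group, 8.85 ± 3.07 in the treadmill group, 19.4 ± 6.96 in catgut group 1 and 17.2 ± 8.16 in catgut group 2, with a log2 fold change of 1.07 for catgut group 1 against treadmill (edgeR adjusted p = 0.193). Nupr1, a stress-induced transcription regulator, had a log2 fold change of -1.28 for treadmill against control (adjusted p = 0.505), and 1 control library reached 38.0 FPKM. Phgdh and Psat1, enzymes of serine synthesis, had 0.520 and 0.393 FPKM in the control group and 0.212 and 0.155 FPKM in the treadmill group, with adjusted p of 0.518 and 0.388.

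**Figure D5:**
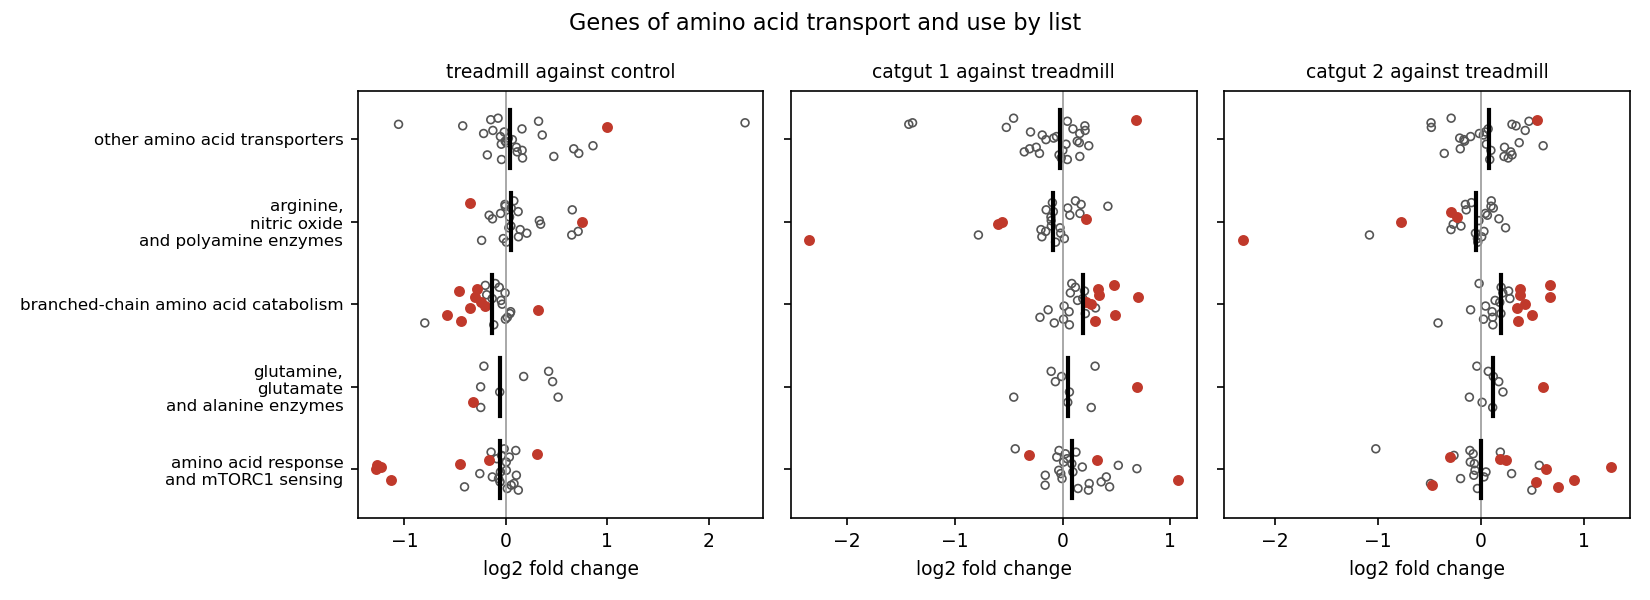
Log2 fold change from edgeR (horizontal axes) of each tested gene of the 5 other lists (rows), for treadmill against control and for catgut groups 1 and 2 against treadmill. Each circle is a gene, filled circles have an unadjusted p under 0.05, and black bars are list medians. The median of the branched-chain catabolism genes was -0.13 in the first panel and 0.19 in each of the others, and the point farthest to the left in the catgut panels is Arg1.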

How the data were processed

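RNA-seq of rat quadriceps, 24 libraries in 4 groups of 6, was reported as 1 table. The authors deposited, per gene and library, FPKM values (fragments scaled to transcript length and to the number of mapped fragments) and whole-number counts. The submitters' processing notes name HISAT2 2.0 and StringTie 1.3.0, and the genome build is not given in the sources used here. The deposited counts entered the tests unchanged. As 4 and 8 were the commonest counts above 0, they may have been worked back from coverage, in which case counting error at low levels is larger than they show.

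Groups came from the labels. Counts of the 12 libraries of each comparison were scaled by TMM and tested with edgeR 4.0.16 in R 4.3.3 (quasi-likelihood, two-sided, Benjamini-Hochberg over the 14772 genes with a mean of at least 0.1 FPKM). Intervals are 95% and come from the fold change and its F statistic. Exact permutation tests used 924 arrangements, with a smallest possible p of 0.00216. DESeq2 1.42.0, limma 3.58.1 and leaving out each library were among the alternatives. Genes of the other lists were named if called, and otherwise up to 4 a list by unadjusted p among those with a ratio of mean FPKM past 1.5 either way. The members and lists were chosen with earlier results of these data known. Replicate numbers 1 to 6 carry no stated pairing. In the control, treadmill and catgut 1 groups, Y-linked transcripts were above 1 FPKM in replicates 4 to 6.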

Additional observations from a re-analysis of the deposited data

Results flagged for a closer look

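Within 28 sets of 6 libraries (7 genes in 4 groups), 2 held a library far from the others by Dixon's criterion (gap over range above 0.625), where chance gives about 1 in 20. Slc7a1 in catgut group 1 had a highest library of 0.219 FPKM (replicate 2), the next being 0.151, a gap of 0.626 of the range. Slc38a2 in catgut group 1 had a highest library of 113 FPKM (replicate 5), the next being 73.1, a gap of 0.642 of the range. Replicate 5 was also the highest of its group for 4 of the 7 genes.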

How the results depend on the processing

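Over the alternatives to 42 fold changes, 893 values had the same sign and call, 4 lost a call, 1 gained one and 56 changed sign. With the replicate number as a block, Slc7a2 was no longer called against the treadmill group in catgut group 1 (log2 fold change 1.19, adjusted p = 0.0810) or catgut group 2 (0.92, 0.0791). So 0 members were called in both, with folds close to those without the block (1.21 and 0.93). Slc7a2 was chosen with the treadmill libraries, so its calls and adjusted p in this paragraph describe the fit and are not a test. With limma on log2(FPKM + 1), 0 were called in catgut 1 against treadmill (Slc7a2 adjusted p = 0.0540). DESeq2 called 2 there (Slc7a8 adjusted p = 0.0216), against 0.941% of all genes. Leaving out single libraries gave 0 to 1 called members in catgut 2 against treadmill, with 0 without treadmill replicate 1 (adjusted p = 0.0555). In the block check, correlations of same-numbered libraries ran from -0.492 to 0.283. In catgut 1 against control all 6 were above 0 (0.0202 to 0.249, median 0.105, against -0.0117 for other numbers). In no comparison were all over 0.1, and 0 to 2 of 6 libraries correlated best with their own number. The block also ended the call of Sms (log2 fold change -0.44, adjusted p = 0.134) and changed no other call of members or listed genes. Calls were lost among all 14772 genes too. With the block they went from 75 to 0 in catgut 2 against control. Against the treadmill group they went from 7 to 2 in catgut group 1 and from 35 to 3 in catgut group 2. The cause of these changes was not tested. Of the 5 genes most like Slc7a2, 1 stayed among the top 5 after subtracting group means and 0 with Spearman's rho.

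Fold changes near 0 changed sign. With the block they were 0.039 for Slc7a1 and 0.034 for Slc7a8 in treadmill against control, and -0.094 for Slc7a5 in catgut 1 against control, where counts divided by 4 gave -0.011 and limma on log2(FPKM + 0.1) -0.027. Limma gave -0.0027 and -0.0029 for Slc38a2 in treadmill against control, and for Slc1a5 0.0040 and 0.011 in catgut 1 against treadmill, 0.010 and 0.018 in catgut 2 against treadmill, and 0.0064 and 0.0071 in catgut 2 against catgut 1. Leaving out single libraries gave ranges of -0.22 to 0.13 (Slc7a1), -0.12 to 0.13 (Slc7a8) and -0.052 to 0.14 (Slc38a2) in treadmill against control. They were -0.034 to 0.053 (Slc3a2) and -0.10 to 0.14 (Slc1a5) in catgut 1 against treadmill, -0.086 to 0.12 (Slc1a5) in catgut 2 against treadmill, -0.054 to 0.30 (Slc7a1) and -0.29 to 0.30 (Slc7a5) in catgut 1 against control. In catgut 2 against catgut 1 they were -0.0073 to 0.58 (Slc7a5), -0.26 to 0.025 (Slc7a8), -0.088 to 0.11 (Slc38a2) and -0.12 to 0.093 (Slc1a5). Slc7a1 and Slc7a5 gave no value at a mean of at least 1 FPKM. Settings for Sms and the other lists were added after seeing the data, and Sms had an adjusted p between 0.00105 and 0.134 over 11 of them, under 0.05 in 4. At 12 counts or fewer in 4 of 24 libraries, Slc7a5 is limited by low counts, which were not separated from the spread between animals. Among the other lists, limma on log2(FPKM + 0.1) called Hibadh in catgut 2 against treadmill, where it called 30 of 14772 genes. Leaving out catgut 2 replicate 4 called Mmut and Arg1 in catgut 2 against control, both lower. That setting called 492 of 14772 genes, against 75 with all libraries. The Y-linked covariate also called Arg1 lower in this comparison, where it called 135 of 14772 genes.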

Other observations

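The control libraries were uneven in Slc7a2 and in Per2, the clock gene whose level followed it. Slc7a2 had 2.16, 3.50, 6.18, 5.66, 3.47 and 5.46 FPKM in control replicates 1 to 6. Per2 had 1.38, 1.79, 5.20, 9.51, 8.57 and 8.12 FPKM in the same libraries. Dbp, a clock output gene, had 7.18, 10.3, 88.2, 140, 116 and 71.6 FPKM. Replicates 1 and 2 thus lay near the treadmill group in Per2, where the highest library had 2.99 FPKM, and the other 4 above it. Replicate 5 had a low Slc7a2 level with a high Per2 level.

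The summed level of Y-linked transcripts was above 1 FPKM in 3 libraries each of the control, treadmill and catgut 1 groups and in 2 libraries of catgut group 2. These were replicates 4 to 6 in the first 3 groups and replicates 1 and 5 in catgut group 2. The replicate number was thus tied to this level, except in catgut group 2. That group had fewer such libraries than the equal numbers of males and females stated in the methods would give. Catgut 2 against control was therefore not balanced in this level.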
